A study of Mus musculus with 15 samples.

Results

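Lysosomal genes were followed in mouse microglia after stroke as a list of 43 genes that encode lysosomal hydrolases, their activators, membrane proteins, subunits of the vacuolar proton pump and the transcription factors that act on them. The members were chosen by gene symbol, and all 43 were present in each of the 3 deposited count tables, which hold 24421 genes. Transient ischemia was made in male mice aged 8 to 24 weeks by blocking the middle cerebral artery (MCAO) for 60 minutes with a filament; sham mice had the surgery with no occlusion. Cells with intermediate CD45 and CD11b staining were sorted from the forebrain, and bulk RNA was sequenced. The 15 libraries fall into 3 sets. Wild-type C57BL/6J mice gave 1 sham library and 1 library each on days 1, 6, 14 and 28 after MCAO. Igf1-Egfp transgenic mice, which carry an EGFP reporter of Igf1, gave 1 library of EGFP-positive and 1 of EGFP-negative cells on each of days 6 and 14 after MCAO. On day 6 after MCAO, 3 biological replicates came from Cx3cr1-CreER;Yy1flox/flox mice (Yy1-deleted) and 3 from Yy1flox/flox mice (floxed). The floxed controls carry the same floxed alleles without the Cre, so an effect of the Cre itself cannot be told apart from that of the deletion, and Cx3cr1 is also active in other mononuclear phagocytes. Tamoxifen treatment, the strain background of the transgenic mice and whether animals were pooled are not given in the sources used here.

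The lysosome is an acidic organelle in which proteases, glycosidases, sulfatases and lipid hydrolases break down material taken up from outside the cell or delivered by autophagy. The vacuolar proton pump (V-ATPase) acidifies its lumen, and heavily glycosylated membrane proteins line its inner face. Microglia, the resident phagocytes of the brain, rely on it to digest myelin and dead cells, and the related factors TFEB, TFE3 and MITF can switch on many lysosomal genes together by binding a palindromic element in their promoters, known as the CLEAR element.

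Library totals ran from 10.53 M to 52.62 M counts. Levels are given as CPM, counts per M counts of the library, after TMM scaling within a table, so levels from different tables are not on one scale. No member was at 0 counts in any library, and the lowest member count was 50. The cell type label was checked with 9 microglial markers, none of which was at 0 in a wild-type or EGFP library. Their summed level was 20560 CPM in the sham library and between 3953 and 9723 CPM in the 4 wild-type libraries after MCAO, with P2ry12 or Cx3cr1 the most abundant. Markers of other cells were also present: the 8 neutrophil markers summed to 2201 CPM on day 1 and the 8 endothelial and mural markers to 4824 CPM on day 14. The day 14 and day 28 libraries held a count for 11823 and 9886 genes, against 16009 in the sham library. In bulk RNA, fewer cells of a type and less RNA per cell cannot be told apart.

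The promoters of the members were searched for the CLEAR core TCACGTGA, which is its own reverse complement, for the shorter palindrome CACGTG that lies inside it, and for AANATGGC on both strands, a form of the YY1 element. The windows were those of RefSeq (GRCm38.p6) from 250 bases before to 50 bases after the start of a transcript. A window was matched for 37 of the 43 members. Those named only are Ctsb, Ctsh, Galns, Asah1, Atp6v1b2 and Atp6v1h. TCACGTGA was found in 6 of the 37 members (16.2%), against 1.12% of 27025 genes with a window. CACGTG, counted with or without the longer core, was found in 12 of 37 members (32.4%) and in 8.09% of all genes. AANATGGC was found in 1 member, Ppt1 (2.7%), and in 6.96% of all genes. A match is a run of letters and not a measured binding site. All 6 windows with a TCACGTGA core are shown, in order of the absolute log2 fold change in the Yy1 comparison. They include pump subunits and both Gla and Ctsd, which passed the test in that comparison. The core is in capitals. They are Gla at chrX:134600956-134601255 (minus strand), Mcoln1 at chr8:3500269-3500568 (plus strand), Ctsd at chr7:142387778-142388077 (minus strand), Atp6v1a at chr16:44139210-44139509 (minus strand), Atp6v0d1 at chr8:105566015-105566314 (minus strand) and Ctsa at chr2:164833523-164833822 (plus strand).
Gla: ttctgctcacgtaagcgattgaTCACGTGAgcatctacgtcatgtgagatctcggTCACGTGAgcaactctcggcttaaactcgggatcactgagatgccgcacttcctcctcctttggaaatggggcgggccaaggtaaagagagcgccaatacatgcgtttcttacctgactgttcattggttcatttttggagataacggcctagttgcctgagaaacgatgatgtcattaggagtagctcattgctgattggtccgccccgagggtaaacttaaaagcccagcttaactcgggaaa
Mcoln1: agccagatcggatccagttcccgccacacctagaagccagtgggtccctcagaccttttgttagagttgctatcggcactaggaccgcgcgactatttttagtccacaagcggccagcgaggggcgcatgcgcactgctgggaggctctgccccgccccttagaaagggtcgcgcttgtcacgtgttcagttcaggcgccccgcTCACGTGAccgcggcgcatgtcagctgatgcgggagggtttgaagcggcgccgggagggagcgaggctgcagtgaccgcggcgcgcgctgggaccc
Ctsd: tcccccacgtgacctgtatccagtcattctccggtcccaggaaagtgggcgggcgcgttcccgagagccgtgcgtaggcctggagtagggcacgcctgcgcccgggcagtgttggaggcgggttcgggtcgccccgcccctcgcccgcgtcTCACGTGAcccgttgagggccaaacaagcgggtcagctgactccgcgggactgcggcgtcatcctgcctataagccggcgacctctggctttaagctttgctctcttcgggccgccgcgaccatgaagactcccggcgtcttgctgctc
Atp6v1a: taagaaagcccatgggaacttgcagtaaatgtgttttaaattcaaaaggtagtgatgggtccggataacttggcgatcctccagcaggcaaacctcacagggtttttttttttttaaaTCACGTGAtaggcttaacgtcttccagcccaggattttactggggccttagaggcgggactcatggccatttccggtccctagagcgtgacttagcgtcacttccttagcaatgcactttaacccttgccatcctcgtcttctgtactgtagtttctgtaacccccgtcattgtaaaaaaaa
Atp6v0d1: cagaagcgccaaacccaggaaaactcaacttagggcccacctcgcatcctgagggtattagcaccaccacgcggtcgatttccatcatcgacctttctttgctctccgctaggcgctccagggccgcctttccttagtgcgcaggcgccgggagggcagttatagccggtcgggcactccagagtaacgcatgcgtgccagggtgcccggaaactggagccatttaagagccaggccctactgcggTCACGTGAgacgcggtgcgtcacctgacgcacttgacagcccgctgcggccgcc
Ctsa: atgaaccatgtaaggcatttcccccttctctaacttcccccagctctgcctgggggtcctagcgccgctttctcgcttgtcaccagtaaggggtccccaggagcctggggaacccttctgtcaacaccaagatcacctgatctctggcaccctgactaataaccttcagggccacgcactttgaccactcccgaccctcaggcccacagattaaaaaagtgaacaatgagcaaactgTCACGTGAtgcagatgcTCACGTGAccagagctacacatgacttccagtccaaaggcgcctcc
Gla and Ctsa hold 2 cores each and the other four hold 1. Counted from the transcript start, the cores of Gla begin at -228 and -195, that of Atp6v1a at -132, that of Ctsd at -99, that of Mcoln1 at -46 and that of Atp6v0d1 at -4, and those of Ctsa begin at -13 and 5.

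Among the members, levels per kilobase of exon in the sham library spanned from 4.97 CPM per kilobase for Atp6v1h, a regulatory subunit of the proton pump, to 2172 CPM per kilobase for Ctsd, the aspartic protease cathepsin D. Cathepsin S (Ctss) followed at 2130 CPM per kilobase, then legumain (Lgmn) at 1165, prosaposin (Psap) at 836 and the membrane protein Laptm5 at 535 CPM per kilobase. The 3 transcription factors were low on this scale, with Tfe3 at 17.2, Mitf at 14.5 and Tfeb at 6.33 CPM per kilobase. With 1 sham library, neighbours in this order cannot be told apart by a replicate spread. The 43 members together made up 2.65% of all counts in the sham library and 2.52%, 3.96%, 2.42% and 2.04% on days 1, 6, 14 and 28.

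On day 1 after MCAO some lysosomal genes stood above the sham level and about as many below it, not far from the shares of all genes. On day 6 those past 2-fold were all above it, where few of all genes (2.92%) were past 2-fold lower. Each time point has 1 wild-type library, so none of these ratios has a replicate check or a test, and all 4 days are set against the same sham library. A member is counted as higher or lower where its log2 ratio of CPM + 1 reached 1 (2-fold) and at least 1 of the libraries had 20 CPM. By this rule 7 of 43 members were higher on day 1 than in sham and 6 were lower, where 12.5% of the 7205 genes considered were higher and 10.6% lower. On day 6, 9 of 43 members were higher and 0 lower, against 10.6% and 2.92% of 7092 genes. The members' median log2 ratio to sham was -0.12 on day 1 and 0.25 on day 6, against -0.00 and -0.09 over all genes considered. The day 6 library was the highest of the 5 wild-type libraries for 16 members and the lowest for none. The day 1 library was the highest for 13 members and the lowest for 9. Highest and lowest days were counted for the members only, with no share over all genes.

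**Figure D1:**
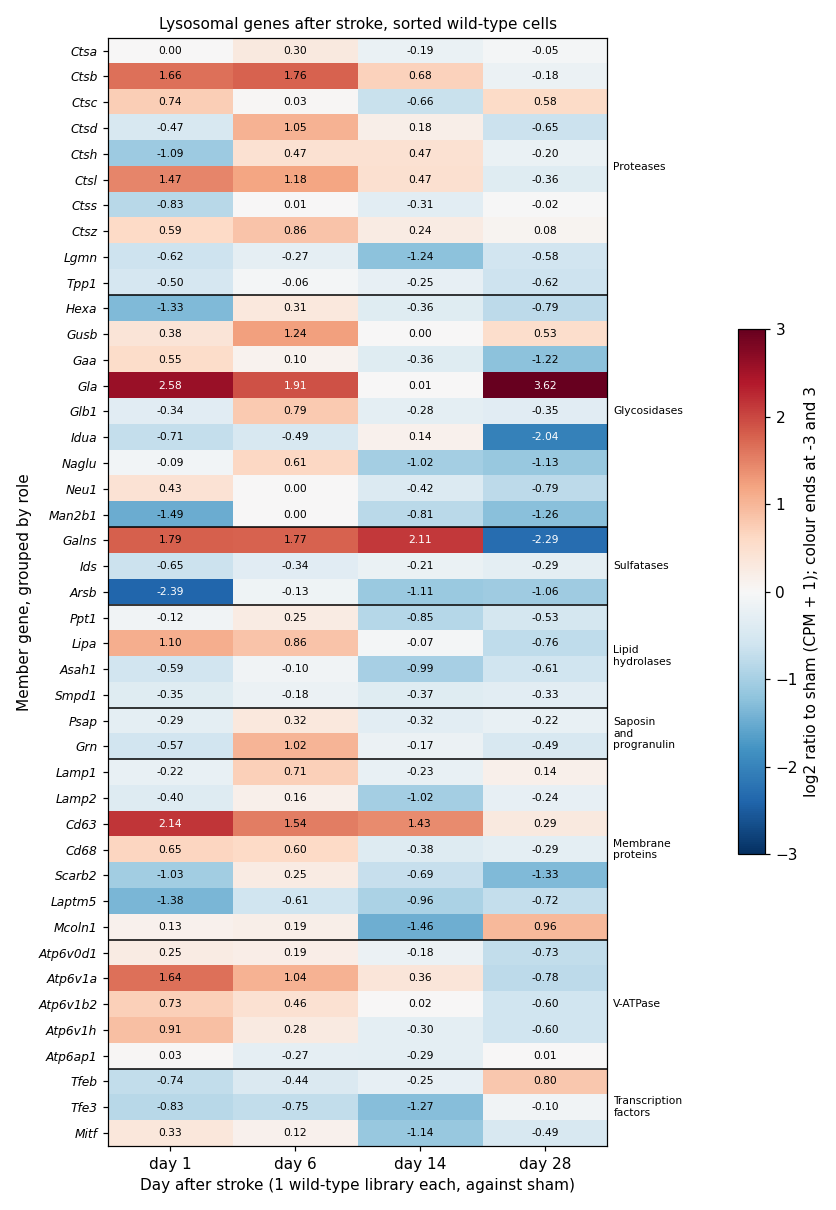
Log2 ratio of CPM + 1 to the sham library for each of the 43 members (rows, grouped by role) on days 1, 6, 14 and 28 after MCAO, 1 wild-type library each; red is higher and blue lower than sham, and the colour ends at -3 and 3. Day 6 has 9 members past 2-fold higher and none past 2-fold lower, where 10.6% of all genes considered were higher and 2.92% lower. Gla has the largest ratio, 3.62 on day 28.

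Among the proteases, the cysteine protease cathepsin B had 1297 CPM in sham and 4108, 4396, 2081 and 1144 CPM on days 1, 6, 14 and 28 (Ctsb). It was high on days 1 and 6 and back near the sham level on day 28. Cathepsin L (Ctsl) had 421.5 CPM in sham and 1171, 955.9, 585 and 328.5 CPM on days 1, 6, 14 and 28, with the same high days. Cathepsin D (Ctsd) did not share the day 1 level: it had 5106 CPM in sham and 3685, 10545, 5788 and 3259 CPM on days 1, 6, 14 and 28. Its log2 ratio to sham was 1.05 on day 6 and -0.47 on day 1. Legumain (Lgmn), an asparaginyl protease, was highest in sham, with 2706 CPM there and 1757, 2245, 1143 and 1812 CPM on days 1, 6, 14 and 28. Cathepsin H (Ctsh), an aminopeptidase, was past 2-fold lower on day 1 (99.2 CPM, against 211.9 CPM in sham) and had 293.3 CPM on day 6. The tripeptidyl peptidase Tpp1, cathepsin A (Ctsa) and Ctsz stayed within 2-fold of sham on all 4 days, as did Ctsc and Ctss.

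The glycosidases and sulfatases held the widest swings. Gla, the galactosidase that clears globosides, had 18.5 CPM in sham and 115.9, 72.6, 18.7 and 239.7 CPM on days 1, 6, 14 and 28. The day 28 library stood above all others for Gla, with a fold of 12.9 over sham (95% interval 12.1 to 13.8 from an exact binomial test of the counts, for counting error only). Galns, a sulfatase of keratan sulfate, had 14.6 CPM in sham and 53.2, 52.3, 66.6 and 2.19 CPM on days 1, 6, 14 and 28. Its highest over lowest ratio of the 5 wild-type libraries, 30.3, was the largest of the 43 members, and its day 28 level came from 50 counts. Arylsulfatase B (Arsb), which acts on dermatan and chondroitin sulfate, went the other way on day 1: it had 628.4 CPM in sham and 119.3, 576, 291.3 and 300.5 CPM on days 1, 6, 14 and 28. Day 1 was thus the lowest library for Arsb, with a log2 ratio to sham of -2.39. Hexa, the alpha subunit of beta-hexosaminidase, and the alpha-mannosidase Man2b1 were also past 2-fold lower on day 1, with log2 ratios of -1.33 and -1.49. Beta-glucuronidase (Gusb) was past 2-fold higher on day 6 only among the 4 days, with 496.3 CPM against 209.8 CPM in sham.

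The lysosomal acid lipase (Lipa), which hydrolyses cholesteryl esters, had 138.2 CPM in sham and 297.2, 252, 131.8 and 81.3 CPM on days 1, 6, 14 and 28. Acid ceramidase (Asah1), acid sphingomyelinase (Smpd1) and the palmitoyl thioesterase Ppt1 were within 2-fold of sham throughout. Progranulin (Grn), a secreted and lysosomal glycoprotein, had 1972 CPM on day 6, against 974.8 CPM in sham, and Psap, the precursor of the saposins that present lipids to hydrolases, had 2872 CPM on day 6, against 2295 CPM in sham.

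Of the membrane proteins, the tetraspanin Cd63 had 87 CPM in sham and 386, 255.2, 235.8 and 106.9 CPM on days 1, 6, 14 and 28. It was past 2-fold higher than sham on days 1, 6 and 14. Laptm5, a lysosomal protein of blood cells, was highest in sham, with 2025 CPM there and 779.9, 1330, 1044 and 1230 CPM on days 1, 6, 14 and 28. Cd68, the macrophage sialoprotein used as a marker of phagocytes, had 345.6 CPM in sham and 543.8, 524.3, 265 and 283.1 CPM on days 1, 6, 14 and 28, never past 2-fold. Lamp1 reached 1060 CPM on day 6, against 648.6 CPM in sham. The catalytic pump subunit Atp6v1a had 80.5 CPM in sham and 253.9, 166.3, 103.6 and 46.5 CPM on days 1, 6, 14 and 28, and all 5 pump members were at or above the sham level on day 1. The accessory subunit Atp6ap1 varied least of all members, with a highest over lowest ratio of 1.25. Of the 3 regulators, Tfeb had 35.9 CPM in sham and 21, 26.3, 30.1 and 63.2 CPM on days 1, 6, 14 and 28, and Tfe3 was highest in sham, with 159.4 CPM. Mitf was highest on day 1, with 89.6 CPM in sham and 113.1, 97.7, 40 and 63.5 CPM on days 1, 6, 14 and 28.

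At the later times fewer members stood above sham. On day 14, 2 of 42 members considered were higher (Galns and Cd63) and 7 were lower, where 22.6% of 7833 genes were higher and 20.2% lower. The 7 were Lgmn, the heparan sulfate enzyme Naglu, Arsb, Lamp2, the calcium channel Mcoln1, Tfe3 and Mitf, with log2 ratios between -1.46 (Mcoln1) and -1.02. On day 28, 1 of 42 was higher (Gla) and 6 were lower, where 27% of 7616 genes were higher and 24% lower. These 6 were the acid glucosidase Gaa, the iduronidase Idua, Naglu, Man2b1, Arsb and Scarb2, the membrane receptor that carries glucocerebrosidase. The members' median log2 ratio was -0.29 on day 14 and -0.49 on day 28, against -0.03 and 0.15 over all genes considered. The day 14 library had the lowest wild-type level for 14 members and the day 28 library for 16. No such count was made over all genes, and both libraries held a count for fewer genes than the sham library. Scaling by RLE (DESeq2's size factors) in place of TMM raised the median day 14 ratio of all genes by 0.17 and left 3 members lower in place of 7. Cell markers differed too: of the 9 microglial markers, 8, 5, 9 and 7 were past 2-fold lower than sham on days 1, 6, 14 and 28, and 8 of 8 endothelial and mural markers were past 2-fold higher on day 6 and on day 14. Neutrophil markers were past 2-fold higher for 7 of 8 on day 1. On day 28, 8 of 8 monocyte, 5 of 8 neutrophil and 4 of 6 dendritic cell markers were past 2-fold higher than in sham and 4 of 8 endothelial and mural markers lower. The dendritic cell markers summed to 457.2 CPM on day 28, against 6.34 CPM in sham, and the endothelial and mural ones to 3.95 CPM on day 28, against 185.9 CPM in sham. The part of these shifts in the lysosomal levels was not tested.

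Between the states of the Igf1 reporter, most lysosomal genes were higher in the EGFP-positive library on each day. For most of them the ratio was larger on day 6 than on day 14. On day 6, 20 of 43 members were past 2-fold higher in EGFP-positive than in EGFP-negative cells and 0 were lower, where 7.53% of 7252 genes were higher and 11.9% lower. The median log2 ratio of the members was 0.91, against -0.04 over all genes considered, and 39 of 43 members were above 0. The members took 5.75% of all counts in the EGFP-positive library and 2.43% in the EGFP-negative library. Igf1 itself had 813 CPM in EGFP-positive cells, against 49.5 CPM in EGFP-negative cells on day 6. Each state has 1 library on each day, so these ratios again have no replicate check.

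**Figure D2:**
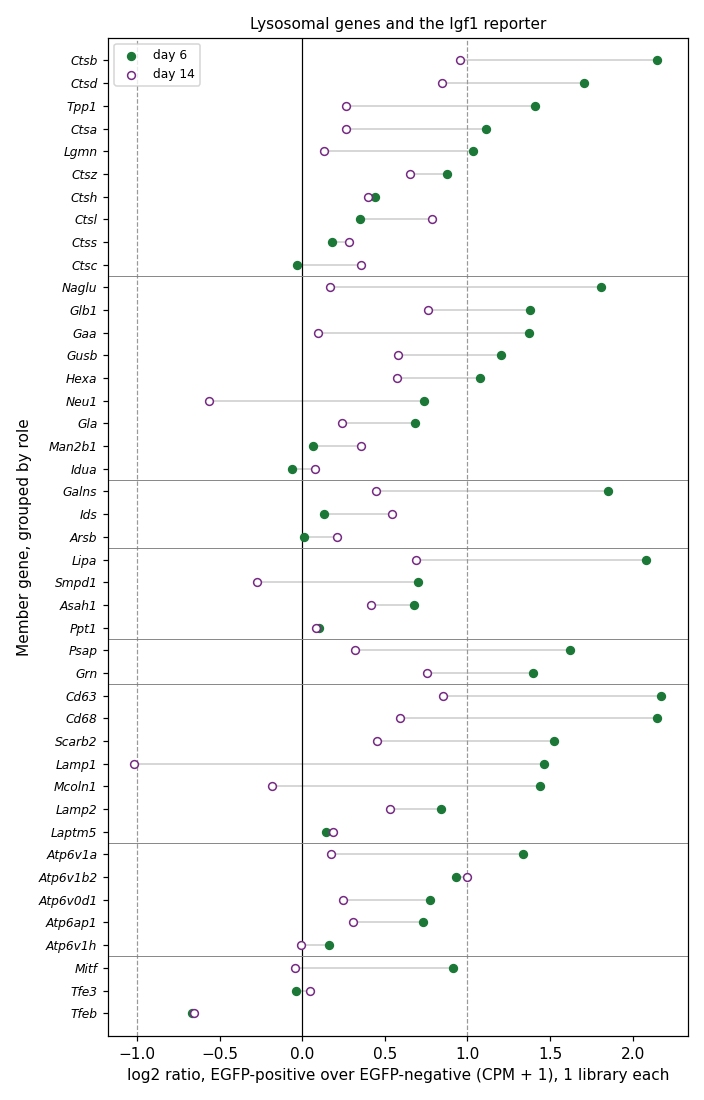
Log2 ratio of CPM + 1, EGFP-positive over EGFP-negative, for each member on day 6 (filled) and day 14 (open), 1 library per state and day, grouped by role; dashed lines mark 2-fold. On day 6, 20 members lie past the upper line and none past the lower one; on day 14 only Lamp1, at -1.02, lies past a line.

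Among proteases, Ctsb had 11809 CPM in EGFP-positive cells, against 2670 CPM in EGFP-negative cells on day 6, a log2 ratio of 2.14. Ctsd had 16009 CPM in EGFP-positive cells, against 4902 CPM in EGFP-negative cells, a log2 ratio of 1.71. Tpp1, which had hardly varied over the days, had 658.1 CPM in EGFP-positive cells, against 247.4 CPM in EGFP-negative cells. Ctsa and Lgmn were also past 2-fold, whereas Ctsc, Ctsh, Ctsl, Ctss and Ctsz were not. Ctsl is thus among the members past 2-fold over sham on day 6 that did not pass it between the EGFP states, with 714.3 CPM in EGFP-positive cells, against 561.5 CPM in EGFP-negative cells.

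In the glycosidases, 5 of 9 were past 2-fold higher in EGFP-positive cells (Hexa, Gusb, Gaa, Glb1 and Naglu), led by Naglu with 166.4 CPM in EGFP-positive cells, against 46.7 CPM in EGFP-negative cells. Galns was the only sulfatase past 2-fold, with 116.7 CPM in EGFP-positive cells, against 31.6 CPM in EGFP-negative cells. Arsb and Man2b1, by contrast, had log2 ratios of 0.01 and 0.07. Lipa had 1068 CPM in EGFP-positive cells, against 251.7 CPM in EGFP-negative cells, and Psap had 9329 CPM in EGFP-positive cells, against 3033 CPM in EGFP-negative cells. The lipid hydrolase and the saposin precursor were both higher in the EGFP-positive library than in any of the 5 wild-type libraries.

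Membrane proteins had the largest median log2 ratio of the roles with over 2 members, 1.47, and 5 of 7 were past 2-fold. Cd63 had 768.1 CPM in EGFP-positive cells, against 169.6 CPM in EGFP-negative cells, and Cd68 had 1325 CPM in EGFP-positive cells, against 298.2 CPM in EGFP-negative cells. Scarb2, Lamp1 and Mcoln1 were the other three, while Laptm5 had a log2 ratio of 0.15. In the pump, Atp6v1a alone was past 2-fold (472.7 CPM in EGFP-positive cells, against 186.6 CPM in EGFP-negative cells), and all 5 subunits were above 0. The transcription factors were not past 2-fold: Mitf had a log2 ratio of 0.91, Tfe3 of -0.04 and Tfeb of -0.67.

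Of the 9 members past 2-fold over sham in the wild-type day 6 library, 7 were among the 20 past 2-fold in EGFP-positive cells, which is 7 of the 20; these comparisons share no library. The exceptions were Ctsl and Gla. The wild-type day 6 level lay between the EGFP-negative and EGFP-positive levels for 25 of 43 members, above both for 6 and below both for 12. For 30 members the EGFP-positive level was above all 5 wild-type libraries. The counts of this paragraph were made for the members only, so no share over all genes stands beside them.

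On day 14 the ratios of most members between EGFP states were smaller. Here 0 of 41 members considered were past 2-fold higher and 1 was lower, where 11.2% of 7085 genes were higher and 10.9% lower. The median log2 ratio was 0.31, against 0.03 over all genes considered, and 36 of 43 members were above 0. The members took 13.02% of all counts in the EGFP-positive library and 9.16% in the EGFP-negative library. Ctsb had 14200 CPM in EGFP-positive cells, against 7332 CPM in EGFP-negative cells, a log2 ratio of 0.95, and the pump subunit Atp6v1b2 was just under 2-fold with a log2 ratio of 0.999. Ctsd had 56425 CPM in EGFP-positive cells, against 31354 CPM in EGFP-negative cells, the highest member level in this table. Cd63 had 918.3 CPM in EGFP-positive cells, against 507.6 CPM in EGFP-negative cells. Lamp1 differed in direction between the days, with 2232 CPM in EGFP-positive cells, against 807.7 CPM in EGFP-negative cells, on day 6, but 92.3 CPM in the positive and 187.6 CPM in the negative library of day 14. Igf1 had 33.5 CPM in EGFP-positive cells, against 11.1 CPM in EGFP-negative cells on day 14, a smaller contrast than on day 6.

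Over both days, 33 of 43 members were higher in EGFP-positive cells at any size, 1 was lower on both (Tfeb, -0.67 on day 6 and -0.65 on day 14) and 9 had opposite signs. The ratio was larger on day 6 than on day 14 for 32 members. How many of all genes did the same was not counted. Day, sequencer and table cannot be told apart here, since the day 14 reporter libraries alone were sequenced on a NovaSeq instrument. A fit of state with day as a term, over the 4 EGFP libraries and with 1 residual degree of freedom, called 0 of 12842 genes with edgeR's quasi-likelihood test (0%), so 0 members. At an unadjusted p under 0.05 the edgeR fit had 7 members among 193 genes. With limma-voom 0 of 12842 genes were called, so 0 members. DESeq2 called 18 genes higher and 13 lower of 11087, with 0 members among them.

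Other cells differed between the EGFP states. On day 6 the 8 neutrophil markers summed to 155.6 CPM in EGFP-positive cells, against 11500 CPM in EGFP-negative cells, with S100a9 the most abundant in the EGFP-negative library at 4936 CPM. The 8 monocyte markers summed to 1105 CPM in EGFP-positive cells, against 4775 CPM in EGFP-negative cells, and 7 of 8 were past 2-fold lower. The 8 markers of border-associated macrophages summed to 2672 CPM in EGFP-positive cells, against 443.7 CPM in EGFP-negative cells, and 4 of 8 were past 2-fold higher, with Stab1 at 2392 CPM. The 9 microglial markers summed to 4282 CPM in EGFP-positive cells, against 5032 CPM in EGFP-negative cells. On day 14 neutrophil markers were the other way round, at 1090 CPM in EGFP-positive cells, against 0.157 CPM in EGFP-negative cells, where 7 of 8 were at 0. The 8 endothelial and mural markers summed to 327.3 CPM in the EGFP-positive library of day 14 and 15.4 CPM in the EGFP-negative one, where 6 of 8 were at 0. Their part in the lysosomal ratios was not tested.

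The genes that hold the TCACGTGA core printed above had a median log2 ratio of 1.22 between EGFP states on day 6, against 0.88 for the 31 other members with a window, and of 0.67 on day 6 over sham, against 0.12. All 6 were above 0 in both, with the lowest at 0.68 (Gla) between EGFP states and at 0.19 over sham. Of all 43 members, 39 were above 0 between EGFP states on day 6 and 32 on day 6 over sham. On the other days over sham the medians of the core holders and of the other members were 0.19 and -0.34 on day 1, -0.09 and -0.36 on day 14, and -0.35 and -0.36 on day 28. Between EGFP states on day 14 they were 0.24 and 0.31. In Yy1-deleted over floxed cells, described next, they were 0.21 and 0.29, with 1 core holder called higher (Ctsd) and 1 lower (Gla).

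Deletion of Yy1, a zinc finger factor that helps bring promoters and enhancers together, is the one contrast with replicates. Yy1 had 32.5, 28.9 and 38.8 CPM in the Yy1-deleted libraries, against 76.1, 50.9 and 57.9 CPM in the floxed libraries. The groups did not overlap, but RNA remained and the difference was not past the test (log2 fold change -0.88, SE 0.28, adjusted p = 0.128, edgeR's quasi-likelihood test with Benjamini-Hochberg adjustment), nor was it in any of the 12 alternatives (adjusted p 0.0681 to 0.569). All 43 members passed the filter on low counts. Of these, 5 rose in Yy1-deleted cells and 1 fell, where 1.55% of the 12387 genes tested rose and 1.05% fell. The risers were the proteases Ctsd and Lgmn, the glycosidase Hexa, the sulfatase Arsb and the membrane protein Laptm5, and the one that fell was Gla.

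Arsb had 650.3, 639.9 and 681.5 CPM in Yy1-deleted libraries, against 374.5, 383.6 and 411.7 CPM in floxed libraries (mean 657.2 ± 21.6 in Yy1-deleted and 389.9 ± 19.4 in floxed libraries, SD, n = 3 each). The groups lay far apart relative to their spread, and the log2 fold change was 0.75 with SE 0.12 (adjusted p = 0.00247 by edgeR). It was called under all 12 alternatives, with adjusted p between 1.93e-09 and 0.0368. About 39.9% of the exon bases of Arsb overlap antisense genes in the GENCODE annotation, and whether counting used the strand is not given in the sources used here.

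Hexa had 396.8, 390.2 and 348.5 CPM in Yy1-deleted libraries, against 201.9, 266.9 and 249.4 CPM in floxed libraries, which gave a log2 fold change of 0.66 with SE 0.15 (adjusted p = 0.0252, edgeR). Laptm5 had 2566, 3184 and 2984 CPM in Yy1-deleted libraries, against 1789, 1509 and 2317 CPM in floxed libraries, which gave a log2 fold change of 0.64 with SE 0.14 (adjusted p = 0.0169, edgeR). Neither gene had overlapping groups, although the highest floxed library came close for Laptm5; 12.8% of the exon bases of Hexa overlap the antisense gene Tmem202. Lgmn had 2871, 3201 and 3072 CPM in Yy1-deleted libraries, against 1988, 2129 and 2430 CPM in floxed libraries, which gave a log2 fold change of 0.48 with SE 0.10 (adjusted p = 0.0165, edgeR). Ctsd had 8017, 8720 and 8541 CPM in Yy1-deleted libraries, against 5756, 6259 and 6928 CPM in floxed libraries, which gave a log2 fold change of 0.42 with SE 0.09 (adjusted p = 0.0132, edgeR). Every Yy1-deleted library stood above every floxed library for both proteases; 34.4% of the exon bases of Ctsd overlap Gm49369 on the same strand.

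Gla was the member that fell. It had 81.3, 54.7 and 41.3 CPM in Yy1-deleted libraries, against 121, 130.9 and 113.2 CPM in floxed libraries (mean 59.1 ± 20.4 in Yy1-deleted and 121.7 ± 8.86 in floxed libraries, SD, n = 3 each). The highest Yy1-deleted value lay below the lowest floxed value, and the log2 fold change was -1.04 with SE 0.24 (adjusted p = 0.0277 by edgeR).

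**Figure D3:**
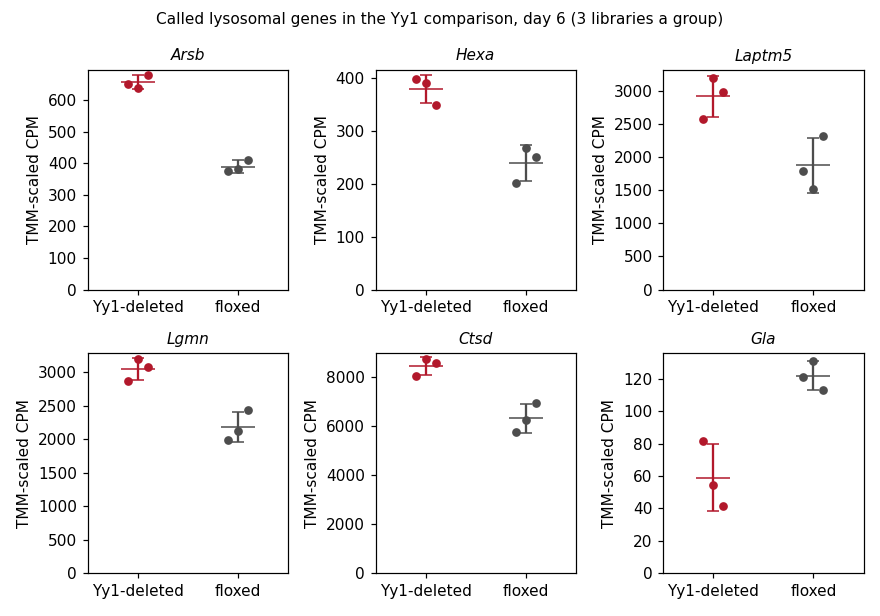
TMM-scaled CPM of the 6 called members in each Yy1-deleted (left) and floxed (right) library on day 6 after MCAO; points are libraries, the horizontal line is the mean and the bar the SD (n = 3 each). No pair of groups overlaps, and Gla is the only panel with the Yy1-deleted group below.

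Except for Arsb, these calls did not hold under every alternative. Without floxed replicate 1 only 1 member stayed higher, and without floxed replicate 2, Yy1-deleted replicate 2 or Yy1-deleted replicate 3 there were 2; Gla was not called when any library but Yy1-deleted replicate 1 was left out. Over the alternatives the adjusted p of edgeR, DESeq2 or limma-voom ran from 0.000491 to 0.201 for Hexa, from 0.000131 to 0.175 for Laptm5, from 6.87e-05 to 0.171 for Lgmn, from 1.33e-05 to 0.16 for Ctsd and from 0.000368 to 0.175 for Gla. With total counts in place of TMM, the median of all genes moved by -0.105, 2 members rose (Arsb and Laptm5) and 2 fell (Gla and Atp6v1h), and 39.7% of all calls were higher in place of 59.6%. The members' median lay above that of all genes by 0.256 with TMM and 0.26 with total counts.

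Most members had positive fold changes in Yy1-deleted over floxed cells, whether or not they passed the test. The median log2 fold change of the 43 members was 0.24, against -0.02 over all genes tested, and 33 members were above 0. All Yy1-deleted libraries lay above all floxed libraries for 15 members (34.9%, against 9.54% of all genes tested) and below them for 3 (6.98%, against 11.5%). The members made up 3.62%, 3.88% and 3.65% of all counts in Yy1-deleted libraries, against 3.01%, 3.23% and 3.44% in floxed libraries.

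**Figure D4:**
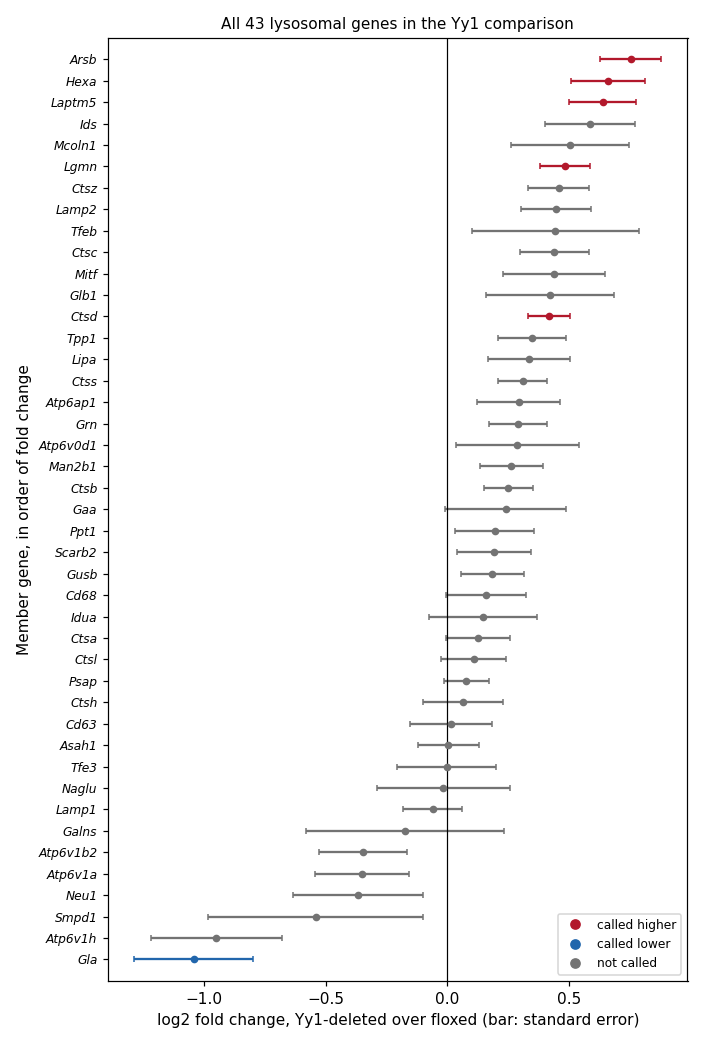
Log2 fold change, Yy1-deleted over floxed, of all 43 members with its standard error (bar), in order of size, from edgeR's fit to 3 libraries a group; red and blue mark members called higher and lower. Arsb is highest at 0.75 and Gla lowest at -1.04, and 33 of 43 members lie above 0.

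By role, all 10 proteases had positive fold changes, with a median of 0.33. Besides the called ones, Ctsb, Ctsc, Ctss, Ctsz and Tpp1 had groups that did not overlap but did not pass edgeR's test. Ctsz, a carboxypeptidase, had 711.5, 858 and 876.4 CPM in Yy1-deleted libraries, against 575.7, 589.6 and 616.9 CPM in floxed libraries (log2 fold change 0.46, adjusted p = 0.0692). Cathepsin S (Ctss) had 3750, 3256 and 3346 CPM in Yy1-deleted libraries, against 2629, 3040 and 2689 CPM in floxed libraries (log2 fold change 0.31, adjusted p = 0.128). Both are separate without overlap, and both were called by DESeq2 and by limma-voom. Of the sulfatases, Ids, which acts on iduronate residues, had 168.8, 224.3 and 162.1 CPM in Yy1-deleted libraries, against 121.9, 111.4 and 136.8 CPM in floxed libraries (log2 fold change 0.59, adjusted p = 0.118). Lamp2, which also serves chaperone-mediated autophagy, had 1062, 968.2 and 819 CPM in Yy1-deleted libraries, against 571.3, 796.5 and 723.3 CPM in floxed libraries (log2 fold change 0.45, adjusted p = 0.128). The groups are apart for Lamp2 by a narrow gap.

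The 5 pump subunits among the members had a median of -0.35, with 2 above 0 and 0 called. Of the 11 other pump subunits on the wider list, 9 were tested, with a median of 0.18 and again 0 called. Atp6v1h had 67.6, 33.9 and 44.8 CPM in Yy1-deleted libraries, against 80.6, 108.3 and 93.6 CPM in floxed libraries (log2 fold change -0.95, adjusted p = 0.0765), and it was called in 6 of the 12 alternatives. Atp6v1b2 had 170.3, 119.3 and 158.1 CPM in Yy1-deleted libraries, against 170.8, 212.7 and 185.6 CPM in floxed libraries. Its groups nearly touch (log2 fold change -0.35, adjusted p = 0.433). Of the transcription factors, Mitf alone had groups that did not overlap, with 144, 124.4 and 126 CPM in Yy1-deleted libraries, against 101.4, 118.2 and 71.6 CPM in floxed libraries (log2 fold change 0.44, adjusted p = 0.363). Several members that differed most between EGFP states overlapped here: Cd63 averaged 177.2 ± 22 CPM in Yy1-deleted and 175.6 ± 16.7 CPM in floxed libraries, and Cd68 averaged 478.6 ± 103 CPM in Yy1-deleted and 428.4 ± 62.9 CPM in floxed libraries (SD, n = 3 each). Psap averaged 3722 ± 194.6 CPM in Yy1-deleted and 3525 ± 225.9 CPM in floxed libraries.

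The 9 microglial markers summed to 11460, 12980 and 12130 CPM in Yy1-deleted libraries, against 5426, 5615 and 6260 CPM in floxed libraries, and 9 of 9 rose; P2ry12, a purinergic receptor of resting microglia, averaged 3847 ± 305 CPM in Yy1-deleted and 1659 ± 148.7 CPM in floxed libraries (SD, n = 3 each). Monocyte markers summed to 621.3, 695.8 and 734.1 CPM in Yy1-deleted libraries, against 841.8, 1006 and 1214 CPM in floxed libraries, with 1 of 8 lower (Chil3). Those of border-associated macrophages summed to 552.7, 782.1 and 771 CPM in Yy1-deleted libraries, against 1362, 1014 and 1082 CPM in floxed libraries, with 1 of 6 tested lower (Stab1). Neutrophil markers overlapped between the groups, at 245.4 to 379 CPM in Yy1-deleted and 306.6 to 340.4 CPM in floxed libraries. The part of these shifts in the lysosomal changes was not tested.

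The 6 called members can be set beside the wild-type days, which share no library with the Yy1 table. All 6 had a Yy1 fold change opposite in sign to their log2 ratio of day 1 over sham, where 79.8% of all 322 called genes did. Arsb, for instance, was 0.75 in Yy1-deleted over floxed cells and -2.39 on day 1 over sham, and Gla was -1.04 and 2.58. On day 28 it was again 6 of 6 (69.9% of all called genes), on day 14 it was 5 of 6 (73.6%) and on day 6 it was 4 of 6 (80.1%). With the EGFP contrasts 1 of 6 was opposite on each day, Gla (50.3% and 56.8% of all called genes on days 6 and 14).

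Over all genes tested in the Yy1 libraries, 1.55% rose and 1.05% fell, with a median log2 fold change of -0.02. A wider list of 69 other lysosomal genes, 64 of which were tested, had 3 that rose and 4 that fell there. Its median was -0.08. The risers included Cst3, the protease inhibitor cystatin C (log2 fold change 1.29, adjusted p = 6.25e-06 by edgeR), and the phospholipase Pla2g15 (0.82, adjusted p = 0.00713 by edgeR). Cst3 had 3835, 4552 and 3822 CPM in Yy1-deleted libraries, against 1503, 1631 and 1862 CPM in floxed libraries. Those that fell were Hgsnat, an acetyltransferase of heparan sulfate breakdown (-2.01, adjusted p = 0.00188 by edgeR), and Lamtor3 of the mTORC1 platform (-1.74, adjusted p = 0.0162 by edgeR). The glycoprotein Gpnmb (-1.43, adjusted p = 0.000157 by edgeR) and galactosylceramidase, Galc (-0.85, adjusted p = 0.0133 by edgeR), fell too. Hgsnat had 19.5, 25.3 and 11.7 CPM in Yy1-deleted libraries, against 86.5, 77.5 and 64.2 CPM in floxed libraries, and Gpnmb had 110.5, 100.2 and 139 CPM in Yy1-deleted libraries, against 294, 318.6 and 330 CPM in floxed libraries. None of the 3 sets of values for Cst3, Hgsnat and Gpnmb overlapped between groups. Between EGFP states on day 6, 7.53% of all genes considered were past 2-fold higher and 11.9% lower, with a median of -0.04. The same list had 20 of 62 considered higher and 0 lower, and a median of 0.59. On day 14, 11.2% of all genes considered were higher and 10.9% lower. Of the list, 5 of 58 were higher and 3 lower. Those higher on both days were Gpnmb, the carboxypeptidase Cpq and the channel Tpcn2; Gpnmb had 3913 CPM in EGFP-positive cells, against 122.7 CPM in EGFP-negative cells, on day 6, but 102.1 CPM in EGFP-positive cells, against 27.6 CPM in EGFP-negative cells on day 14.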

How the data were processed

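Values were taken from 3 deposited gene tables. The wild-type and day 6 EGFP table and the day 14 EGFP table hold read counts per gene as deposited by the authors, with no normalization. The Yy1 table, as deposited, holds values that are not all whole (3.55% to 4.75% of them are fractions) and was read as holding expected counts, rounded before testing. The submitters' processing notes name STAR, featureCounts, edgeR, mm10 and GRCm38; roles, versions, annotation and strand use are not given in the sources used here. Among small counts of the whole-count tables, between 68.7% and 90.9% were even, so intervals there are too narrow if both mates of a fragment were counted. Intervals cover counting error only.

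Levels were scaled by TMM with edgeR 4.0.16 in R 4.3.3. The Yy1 groups were compared with edgeR's two-sided quasi-likelihood test after filterByExpr, with no replicate block, Benjamini-Hochberg adjustment over 12387 genes and a threshold of 0.05; each standard error is the fold change over the root of its F statistic. Alternatives used DESeq2 1.42.0, limma-voom (limma 3.58.1), other scaling, no filter, the replicate block and each library left out. Pairs of replicates differed well beyond sampling noise (chi-square per degree of freedom 25.5 to 58.1). Each was counted as 1 sample, though this measure cannot tell whether the libraries came from separate animals. Ratios of single libraries used a pseudocount of 1 CPM and a 95% exact conditional binomial interval. Exon lengths and overlaps came from GENCODE M21. The scripts were tested on simulated data.

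All 43 members could be named. Other genes were named where they were Yy1, Igf1 or P2ry12, were called in the Yy1 comparison, passed 2-fold the same way in both EGFP comparisons, or led their marker list in a library; 1 gene that this rule names is not reported here. The members and lists were chosen with earlier results of these data known.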

Additional observations from a re-analysis of the deposited data

Results flagged for a closer look

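Lamp1, a major lysosomal membrane glycoprotein, differed in direction between the days of the EGFP comparison. Its log2 ratio of EGFP-positive over EGFP-negative cells was 1.47 on day 6 and -1.02 on day 14, each from 1 library per state, and the difference between days was not tested. The day 14 level was 92.3 CPM in EGFP-positive cells, against 187.6 CPM in EGFP-negative cells.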

How the results depend on the processing

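In the Yy1 comparison the 5 members called higher became 2 with total counts, 10 with DESeq2 and 10 with limma-voom, and 1 to 4 when a library was left out. The 1 called lower became 2 with total counts, DESeq2, limma-voom, no low-count filter or the replicate block, and 0 to 2 when a library was left out. Over all genes tested, 192 of 12387 were called higher and 130 lower in the main fit. It was 383 and 370 of 13856 with DESeq2, 289 and 192 of 12387 with limma-voom, and 127 and 193 of 12387 with total counts. It was 309 and 266 of 16110 with no filter and 219 and 194 of 12387 with the replicate block. A left-out library gave 58 to 166 higher and 39 to 151 lower. Of the other lysosomal genes, the 3 called higher became 6 with DESeq2 (2 to 3 with a library left out) and the 4 called lower became 6 with DESeq2 and limma-voom (2 to 4 with a library left out). The replicate block left 5 members higher. Deviations of libraries with the same number correlated at -0.00581, -0.0384 and -0.0279. No shared deviation by number was seen, but this cannot tell whether samples with the same number were handled together. Over 216 values of 18 members under alternatives, 177 kept their call, 23 lost it, 16 gained it and 0 turned sign.

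Against sham, a rule of 1.5-fold in place of 2-fold gave 12 members higher and 13 lower on day 1, 15 and 2 on day 6, 13 lower on day 14, and 3 and 17 on day 28. With 4-fold there were 2 and 1 on day 1, 0 higher on day 6, 1 and 0 on day 14, and 1 lower on day 28. On day 14, RLE scaling gave 3 lower and total counts 4; on day 28 RLE gave 2 higher. Between EGFP states, 1.5-fold gave 30 higher and 1 lower on day 6 and 10 and 2 on day 14, and 4-fold gave 4 higher on day 6 and 0 lower on day 14. On day 14 RLE or a pseudocount of 0.5 gave 1 higher, and a pseudocount of 5 gave 0 lower. Shares over all genes were counted only for the 2-fold rule with TMM and a pseudocount of 1 CPM. None stands beside the counts of this paragraph, so they describe the members alone. Scaling by RLE moved the median of all genes by 0.17 on day 14 and 0.121 on day 28, and total counts moved it by 0.109 on day 14 and by -0.104 between EGFP states on day 14. The causes were not tested. Single libraries, depth below 20 CPM and the lower number of detected genes on days 14 and 28 limit these ratios.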
